A study of Mus musculus with 29 samples.

Results

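Aebp1, Dcn, Lum, Ogn, Islr, Foxc1, Foxd1 and Aldh1a2, which are genes of meningeal fibroblasts other than collagens, were followed through the RNA-seq libraries of embryonic mouse cortex with and without the BAF chromatin-remodeling complex. They are 8 of the 38355 genes in the count table of untreated mice and of the 48709 genes in the count table of treated mice. The set was selected on values of these data: it was chosen by the higher level of Aebp1 in mutant libraries with a Wnt inhibitor than in mutant libraries with vehicle. That contrast is therefore described for the 8 genes without a test, and Aebp1 has no p-value in any contrast.

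All samples were embryonic (E17.5 in the labels) and came from mice in which, in the mutants, Baf155 fl/fl and Baf170 fl/fl alleles were removed by Cre under the human GFAP promoter (hGFAP-Cre), which drives Cre in late cortical progenitors. These double conditional knockouts are called dcKO, and Baf155 and Baf170 are the genes Smarcc1 and Smarcc2. The untreated libraries comprise 4 with the letter C and 3 with the letter M in their names, read here as control and mutant, and the study's controls were heterozygous littermates that also carried Cre. The deposited genotype of all untreated libraries reads dcKO, so the letters alone separate these groups. The treated libraries comprise 4 wild type (WT) cortices with vehicle, 4 dcKO cortices with vehicle and 4 dcKO cortices with the Wnt inhibitor ICG-001 (WNTi). The dams received the vehicle, DMSO, or the inhibitor by daily injection, so the embryos were treated through the mother. H3K27me3 ChIP-seq peak lists of 4 C and 4 K pallia, in which K is read as mutant from the letter alone since the deposited genotype reads dcKO here too, were used as a readout that did not choose the genes.

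The meninges are the connective tissue sheets that cover the brain, and their fibroblasts lay down collagen and proteoglycans at the pial surface. The transcription factor Foxc1 is required for their formation, and the retinoic acid that they make through Aldh1a2 reaches the cortex beneath. Dcn, Lum and Ogn encode decorin, lumican and osteoglycin, small leucine-rich proteoglycans that bind collagen fibrils. Aebp1 encodes the secreted collagen-binding protein ACLP, Islr encodes meflin, a leucine-rich membrane protein of mesenchymal cells, and Foxd1 is a forkhead factor of mesenchymal stroma.

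The starts of 4 of these genes are shown: Aebp1, on which the set was chosen, Aldh1a2, which is the richest in CpG pairs, and Ogn and Islr, which are the poorest. RefSeq promoter windows of 300 bases on GRCm38.p6, from 250 bases before to 50 bases after the start, were found for 6 of the 8 genes, all but Dcn and Lum. In the windows below, read 5′ to 3′ along the gene, CpG pairs are in capitals. The windows are chr11:5861616-5861915 on the plus strand for Aebp1, chr9:71215539-71215838 on the plus strand for Aldh1a2, chr13:49607765-49608064 on the plus strand for Ogn and chr9:58158505-58158804 on the minus strand for Islr.
Aebp1: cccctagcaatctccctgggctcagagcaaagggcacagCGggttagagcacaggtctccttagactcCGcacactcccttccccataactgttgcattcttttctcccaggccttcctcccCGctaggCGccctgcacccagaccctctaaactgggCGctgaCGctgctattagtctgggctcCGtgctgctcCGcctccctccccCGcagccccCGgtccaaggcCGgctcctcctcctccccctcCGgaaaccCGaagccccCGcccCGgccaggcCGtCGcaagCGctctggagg
Aldh1a2: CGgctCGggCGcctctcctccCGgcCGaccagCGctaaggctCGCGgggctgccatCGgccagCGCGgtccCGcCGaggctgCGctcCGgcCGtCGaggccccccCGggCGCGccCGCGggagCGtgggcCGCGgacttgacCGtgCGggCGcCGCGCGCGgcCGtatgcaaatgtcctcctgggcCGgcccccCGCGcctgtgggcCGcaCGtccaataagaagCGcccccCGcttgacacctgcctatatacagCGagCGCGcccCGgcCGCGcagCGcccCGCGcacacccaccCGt
Ogn: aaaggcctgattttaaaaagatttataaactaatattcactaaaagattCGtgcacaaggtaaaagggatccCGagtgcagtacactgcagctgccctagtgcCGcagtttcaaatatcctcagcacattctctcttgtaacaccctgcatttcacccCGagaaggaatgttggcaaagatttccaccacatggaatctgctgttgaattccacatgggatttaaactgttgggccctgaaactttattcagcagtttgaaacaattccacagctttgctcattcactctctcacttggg
Islr: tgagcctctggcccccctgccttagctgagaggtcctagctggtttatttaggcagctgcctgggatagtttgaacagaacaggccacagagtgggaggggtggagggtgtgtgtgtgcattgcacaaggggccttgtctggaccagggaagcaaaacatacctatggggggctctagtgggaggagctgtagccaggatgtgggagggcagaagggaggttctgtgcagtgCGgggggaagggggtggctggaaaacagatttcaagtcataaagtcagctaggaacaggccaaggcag

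The Aldh1a2 window held 50 CpG pairs, more than 99.1% of the 32851 promoters of the table, and the Aebp1 window held 18. The Ogn window held 4 and the Islr window 1, which is more than only 5.43% of promoters. The forkhead genes lay between, with 32 pairs at Foxc1 and 15 at Foxd1, beside a median of 7 over all promoters. The TCF/LEF core CTTTGAT, the motif of the Wnt pathway's DNA-binding factors, was searched on both strands and was in none of the 6 windows. It was in 3.73% of all promoters, so its absence from 6 says only that these letters are not there.

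Libraries held 11946658 to 28391046 counted reads, and 15770 genes of the untreated and 16372 of the treated table passed the filter on low counts, all 8 genes among them. Several libraries went against their labels. Smarcc1 was at 247 to 269 CPM (read counts scaled to the library size) in the C libraries and at 245 to 299 in the WT libraries, against 128 and 135 in the libraries labelled M 3 and M 4. The library labelled M 2 stood at 245, dcKO vehicle 2 at 242, dcKO WNTi 1 at 214 and dcKO WNTi 2 at 252, all above the 133 to 138 of the other dcKO vehicle libraries. dcKO WNTi 4 was intermediate at 173, and dcKO WNTi 3 was at 140. Results are given with all libraries and without the 4 labelled M 2, dcKO vehicle 2, dcKO WNTi 1 and dcKO WNTi 2. The experiments also share a structure. Deviations from the group mean over 15220 genes correlated between untreated and vehicle libraries of the same number and genotype (r between 0.204 and 0.805), and this was the highest correlation for 6 of the 7 untreated libraries, so the untreated and vehicle comparisons are not independent.

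Expression of all 8 genes was low in these dissected cortices, between 0 and 170 reads per library. Per kilobase of exon, Islr had the highest mean in each of the 5 groups, from 1.02 ± 0.0703 CPM per kb (SD, n = 3) in M to 1.75 ± 0.625 (n = 4) in WT vehicle. Foxd1 had the lowest mean in each group, from 0.0689 ± 0.0298 in M to 0.124 ± 0.0671 in dcKO WNTi. Of the neighbours in that order, Islr stood apart from the next gene in C, M and dcKO vehicle, and Dcn from Lum in M, whereas the ranges of all other neighbours overlapped. Aebp1 ranked 5 or 6 of the 8 in the other groups and 3 in dcKO WNTi, with 1.13 ± 0.455 CPM per kb (n = 4). Because whole tissue was sequenced, fewer meningeal cells in a dissection and less RNA per cell cannot be told apart.

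**Figure D1:**
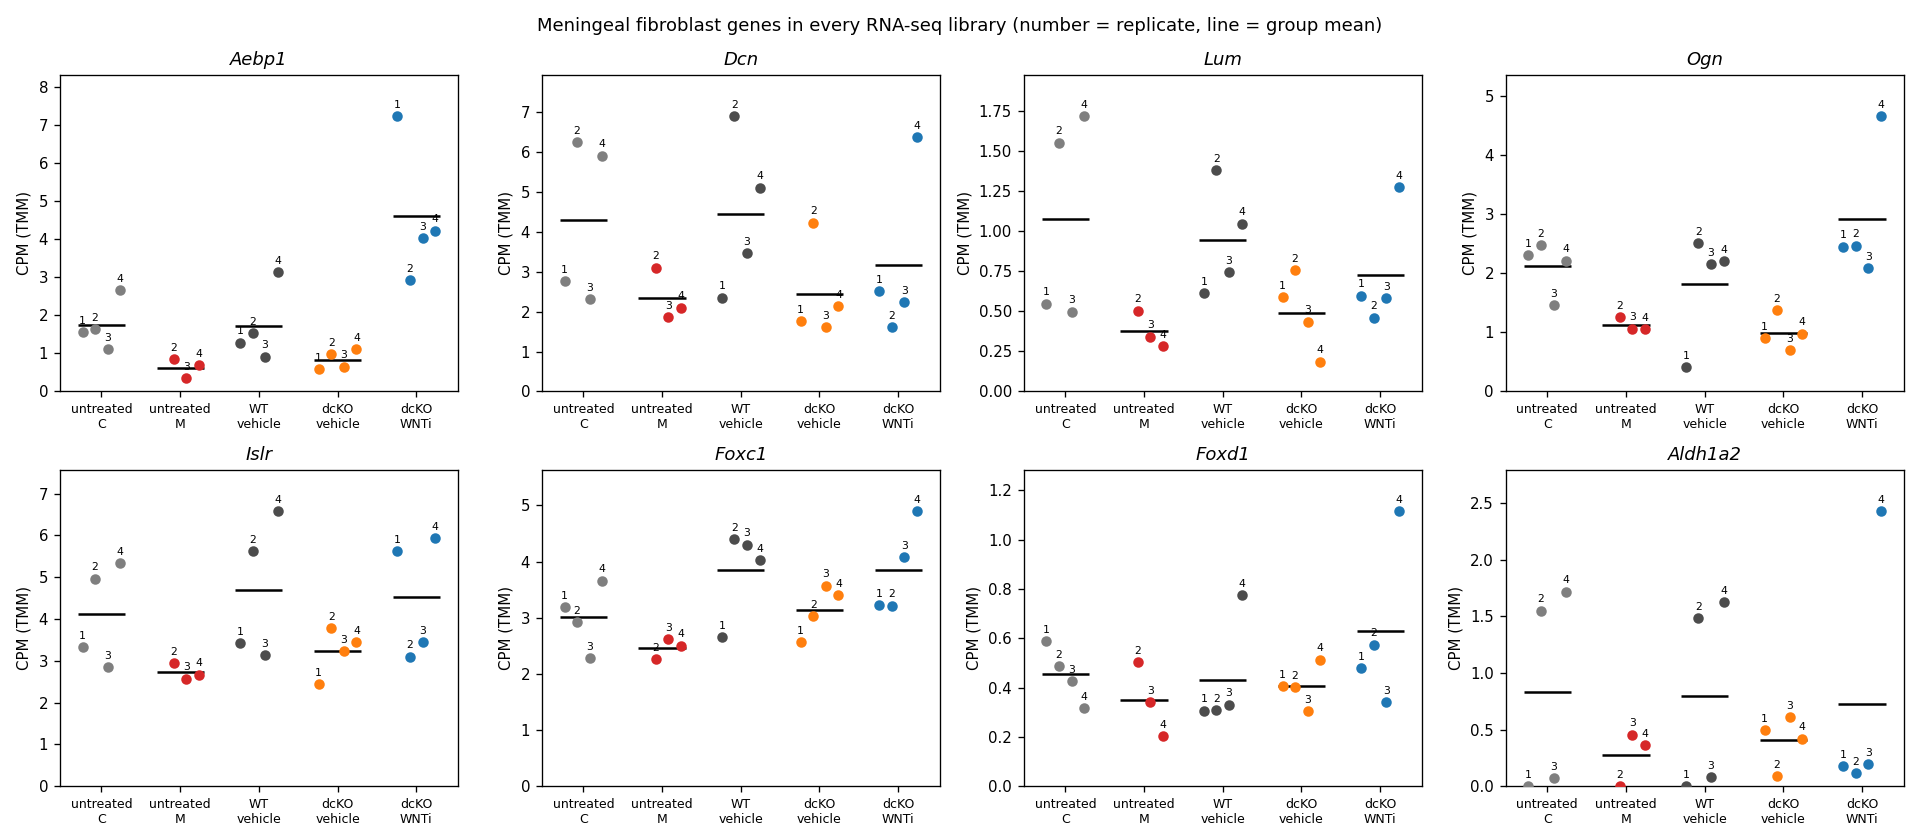
Expression of the 8 genes in CPM (vertical axis, linear, TMM-scaled) in each RNA-seq library, by group. Each point is a library with its replicate number and each line a group mean; all 4 dcKO WNTi points of Aebp1, 2.93 to 7.24 CPM, lie above all dcKO vehicle points, and dcKO WNTi 4 is the highest of its group for 7 of the 8 genes.

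Aebp1 was lower in the mutant libraries and highest with the inhibitor. In the untreated C libraries 1 to 4 it stood at 1.55, 1.64, 1.10 and 2.67 CPM, and in M 2, 3 and 4 at 0.839, 0.341 and 0.687 CPM. The C and M libraries did not overlap. In the WT vehicle libraries it was at 1.28, 1.54, 0.910 and 3.14 CPM and in the dcKO vehicle libraries at 0.586, 0.980, 0.654 and 1.12 CPM, with an overlap between the groups. In the dcKO WNTi libraries it was at 7.24, 2.93, 4.03 and 4.22 CPM, the lowest of which is more than the highest dcKO vehicle library. The log2 fold change was -1.55 ± 0.40 (SE) for M against C and -1.09 ± 0.40 for dcKO vehicle against WT vehicle. It was 2.45 ± 0.39 for dcKO WNTi against dcKO vehicle, a 5.48-fold difference, and 1.37 ± 0.36 for dcKO WNTi against WT vehicle. The WT vehicle 4 library, with 3.14 CPM, overlapped the dcKO WNTi range. dcKO vehicle 1 and 2 and dcKO WNTi 1 shared sequencing lane 1, dcKO vehicle 3 and 4 and dcKO WNTi 2 and 3 shared lane 2, and dcKO WNTi 4 was alone in lane 3. With lane as a term, in a fit that left out dcKO WNTi 4, the log2 difference was 2.49. The values of dcKO WNTi against dcKO vehicle are those of the contrast that chose the set and are given as a description. The part of lane in them was not tested.

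Of the proteoglycans, Ogn was the one whose C and M libraries, and whose dcKO vehicle and dcKO WNTi libraries, did not overlap. Its levels in C 1 to 4 were 2.31, 2.48, 1.46 and 2.21 CPM, and in M 2 to 4 they were 1.26, 1.06 and 1.05 CPM. In WT vehicle they were 0.409, 2.51, 2.15 and 2.21 CPM, and in dcKO vehicle 0.902, 1.38, 0.697 and 0.979 CPM. WT vehicle 1 was thus below all dcKO vehicle libraries while the other 3 WT libraries were above them. In dcKO WNTi, Ogn was at 2.45, 2.47, 2.09 and 4.66 CPM, above every dcKO vehicle library. The log2 fold change was -0.93 ± 0.24 for M against C, with an adjusted p of 0.149 by edgeR's quasi-likelihood test, and -0.87 ± 0.44 for dcKO vehicle against WT vehicle, with an adjusted p of 0.578. Against dcKO vehicle, dcKO WNTi was higher by 1.57 ± 0.43, and against WT vehicle it differed by 0.70 ± 0.41, with an adjusted p of 0.361 and a 95% interval from -0.11 to 1.51.

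Dcn and Lum varied widely within the groups. Dcn was at 2.77, 6.25, 2.31 and 5.92 CPM in C 1 to 4, and at 3.11, 1.86 and 2.1003 CPM in M 2 to 4. Lum was at 0.546, 1.55, 0.498 and 1.72 CPM in the same C libraries and at 0.504, 0.341 and 0.283 CPM in M. For both genes C 2 and C 4 were high and C 1 and C 3 within or close to the M range, so the groups overlapped. The WT vehicle libraries of the same numbers repeated this for Dcn, with 2.35, 6.91, 3.47 and 5.11 CPM, and for Lum, with 0.614, 1.38, 0.744 and 1.05 CPM. In dcKO vehicle, Dcn was at 1.76, 4.23, 1.61 and 2.14 CPM and Lum at 0.586, 0.757, 0.436 and 0.186 CPM. The highest value of both genes there belongs to dcKO vehicle 2, which also had Smarcc1 at the WT level. In dcKO WNTi, Dcn was at 2.51, 1.61, 2.24 and 6.38 CPM and Lum at 0.598, 0.459, 0.583 and 1.28 CPM, so that replicate 4 alone lay above the dcKO vehicle libraries in both. The log2 fold changes of Dcn and Lum were -0.91 ± 0.40 and -1.57 ± 0.56 in M against C (edgeR adjusted p = 0.310 and 0.223). In dcKO vehicle against WT vehicle they were -0.88 ± 0.45 and -0.95 ± 0.43 (edgeR adjusted p = 0.579 and 0.499).

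Dcn and Lum are also neighbours, 46984 bases apart on the plus strand of chromosome 10 (Dcn at chr10:97479609-97518143), in a run of proteoglycan genes with Kera and Epyc. Ogn lies at chr13:49608046-49624501 in a similar run, 15223 bases from Omd, with Aspn and Ecm2 beyond. Among the proteoglycan genes beside them, Ecm2 passed the filter in the treated table, with means of 3.63 CPM in WT vehicle, 2.78 in dcKO vehicle and 2.51 in dcKO WNTi. Kera, Epyc, Omd and Aspn did not pass the filter in either table, and their highest level in any library was 0.559 CPM, for Aspn in dcKO vehicle.

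Islr ranged from 2.85 to 5.33 CPM in C and from 2.58 to 2.94 in M, and from 3.14 to 6.59 in WT vehicle and 2.44 to 3.79 in dcKO vehicle, with overlap in both comparisons. Its log2 fold changes were -0.60 ± 0.24 (edgeR adjusted p = 0.275) and -0.56 ± 0.28 (edgeR adjusted p = 0.566). In dcKO WNTi it ranged from 3.10 to 5.94 CPM, and the difference from WT vehicle was -0.07, with a 95% interval from -0.61 to 0.47. Of its exon bases, 181 (6.70%) are shared with Islr2 on the same strand, so a part of its reads may belong to that gene.

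The forkhead genes had the smallest fitted differences of the 8 between mutant and control groups. Foxc1 was between 2.28 and 3.66 CPM in C, 2.27 and 2.61 in M, 2.66 and 4.40 in WT vehicle, 2.57 and 3.57 in dcKO vehicle, and 3.21 and 4.90 in dcKO WNTi. Its log2 fold change was -0.28 ± 0.20 in M against C and -0.29 ± 0.20 in dcKO vehicle against WT vehicle (edgeR adjusted p = 0.529 and 0.753). Between dcKO WNTi and WT vehicle Foxc1 differed by 0.01 ± 0.20, with a 95% interval from -0.38 to 0.41, the narrowest of the 7 tested. Foxd1 had 4 to 28 reads per library and lay between 0.202 and 1.12 CPM. Its log2 fold change was -0.49 ± 0.40 in M against C and -0.16 ± 0.44 in dcKO vehicle against WT vehicle, and without WT vehicle 4 the latter turned to 0.37.

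Aldh1a2, the enzyme of retinoic acid synthesis, was present in some libraries and nearly absent in others of the same group. It was at 1.55 and 1.72 CPM in C 2 and C 4 but at 0 and 0.0712 CPM in C 1 and C 3, and likewise at 1.48 and 1.63 CPM in WT vehicle 2 and 4 but at 0 and 0.0827 CPM in WT vehicle 1 and 3. In M 2 to 4 it was at 0, 0.454 and 0.364 CPM. The 3 libraries with no read, C 1, M 2 and WT vehicle 1, allow up to 0.126, 0.252 and 0.153 CPM, as a count of 0 is compatible with 3 reads, a limit that covers counting error only. In dcKO vehicle it was at 0.496, 0.0891, 0.610 and 0.420 CPM, and in dcKO WNTi at 0.179, 0.115, 0.194 and 2.43 CPM. Only replicate 4 of the inhibitor group stood above dcKO vehicle, and the other 3 lay within its range. The spread left wide errors, with log2 fold changes of -1.31 ± 1.30 in M against C, -1.08 ± 1.03 in dcKO vehicle against WT vehicle and -0.12 ± 0.96 in dcKO WNTi against WT vehicle (edgeR adjusted p = 0.669, 0.878 and 0.957).

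Taking the set as a whole, all 8 genes were fitted lower in M than in C, with a median log2 fold change of -0.92 beside 0.00 over all genes, of which 49.0% were fitted lower and 51.0% higher. None of the 7 tested genes passed an adjusted p of 0.05 with edgeR, where 0.00634% of all genes were called higher and 0.0% lower, nor with DESeq2, which called 1.59% higher and 1.78% lower. Before adjustment, at p under 0.05 by edgeR, 4 of the 7 were lower, Dcn, Lum, Ogn and Islr, against 8.14% of all genes, and 0 were higher (7.91%). These 4 genes are not separate observations. Over the untreated libraries Dcn, Lum and Islr correlated with each other at r = 0.97 to 0.98, and Ogn with them at 0.80 to 0.85. Aebp1 and Ogn were the 2 of 8 with no overlap between the groups, both lower, and 6.21% of all genes lay apart in that direction and 6.96% in the other. Without the library labelled M 2, Ogn fell by 0.99 on the log2 scale and passed the test (edgeR adjusted p = 0.0374). In that fit 6.88% of all genes were called lower and 5.57% higher, and the same 4 genes had an unadjusted p under 0.05, beside 13.9% of all genes lower and 12.7% higher.

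The dcKO vehicle and WT vehicle libraries, which are not independent of the untreated ones, gave a similar picture with more overlap. All 8 genes were again fitted lower, as 50.7% of all genes were (49.3% higher), with a median of -0.88 beside 0.00 for all genes. None of the 7 tested passed an adjusted p of 0.05 with edgeR (0.00611% of all genes higher, 0.0% lower) or DESeq2 (0.444% higher, 0.18% lower). Before adjustment, at p under 0.05 by edgeR, only Lum was lower, against 5.33% of all genes, and 0 were higher (4.14%), and none of the 8 had groups without overlap (2.58% of all genes lower, 3.08% higher). Without dcKO vehicle 2, dcKO WNTi 1 and dcKO WNTi 2, Dcn and Lum had an unadjusted p under 0.05, against 9.4% of all genes lower and 7.43% higher, and their log2 fold changes were -1.29 and -1.24 (edgeR adjusted p = 0.121 and 0.172). In that fit 3.34% of all genes were called lower and 2.47% higher at an adjusted p of 0.05, and none of the 7.

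Between dcKO WNTi and dcKO vehicle, the contrast that chose the set, all 8 genes were fitted higher, as 51.8% of all genes were (48.2% lower), with a median log2 difference of 0.63. Over all genes, edgeR called 0.0428% higher and 0.0122% lower here. Aebp1 and Ogn were the 2 without overlap, both higher, as 4.48% of all genes were (4.03% lower). The other 6 lay between 0.30 ± 0.20 for Foxc1 and 0.96 ± 1.04 for Aldh1a2, with Islr at 0.49 ± 0.28, Dcn at 0.41 ± 0.45, Lum at 0.60 ± 0.43 and Foxd1 at 0.66 ± 0.42. Much of this rested on dcKO WNTi 4, the highest library of its group for each gene but Aebp1. Without it the median was 0.17, Dcn stood at -0.20 and Aldh1a2 at -1.27, while Aebp1 and Ogn remained higher, with no leave-out bringing Aebp1 under 2.16 or Ogn under 1.23. Without dcKO vehicle 2, dcKO WNTi 1 and dcKO WNTi 2 the median was 1.23, and the differences of Aebp1, Ogn and Dcn were 2.39, 1.98 and 1.24. That fit kept only dcKO WNTi 3 and dcKO WNTi 4 in the inhibitor group, with Dcn at 2.24 and 6.38 CPM, so it too rested largely on dcKO WNTi 4.

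Against WT vehicle, dcKO WNTi was fitted higher for 4 of the 8 genes and lower for 4 (50.8% and 49.2% of all genes), with a median of -0.03. None of the 7 tested passed an adjusted p of 0.05 with edgeR (0.0611% of all genes higher, 0.0366% lower) or DESeq2 (1.93% higher, 2.49% lower). None had an edgeR p under 0.05 before adjustment, beside 9.53% of all genes higher and 10.2% lower, and none of the 8 had groups without overlap (3.48% and 4.02% of all genes). Without the 3 libraries none passed either limit, where 2.66% of all genes were called higher and 4.72% lower after adjustment, and 10.9% and 13.7% before it. That fit kept only dcKO WNTi 3 and dcKO WNTi 4 in the inhibitor group. The intervals of Dcn and Lum, from -1.34 to 0.40 and from -1.15 to 0.45, include both no difference and the size of their difference between dcKO vehicle and WT vehicle.

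**Figure D2:**
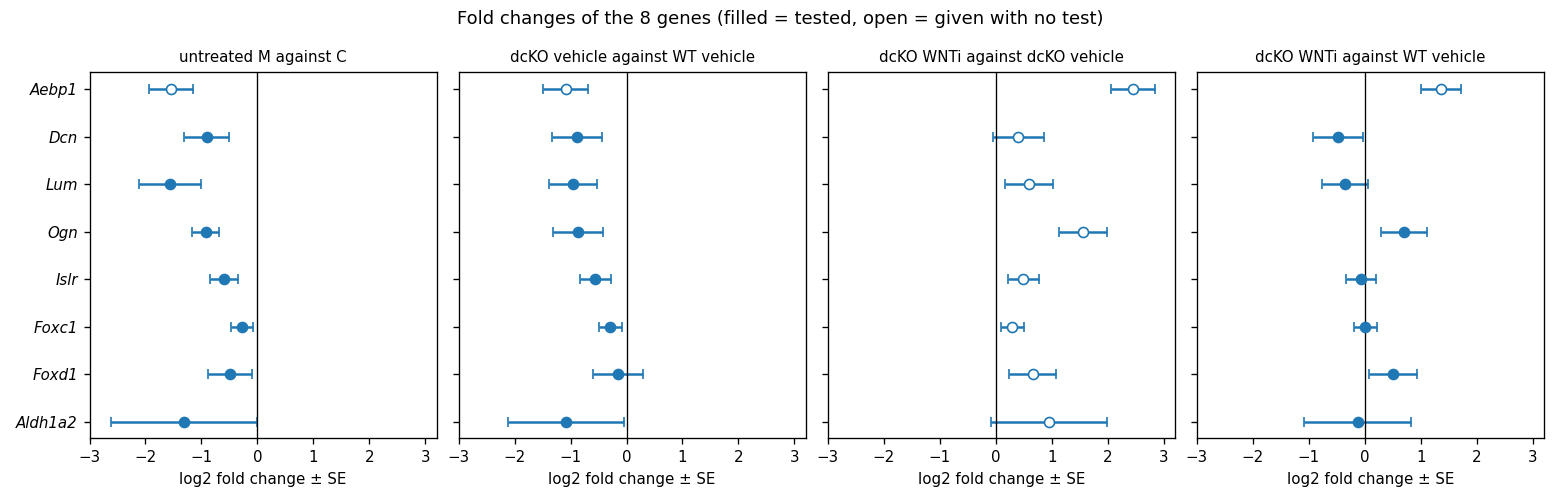
Log2 fold change with its SE (horizontal axis) of the 8 genes in 4 comparisons, with filled symbols for tested and open symbols for untested values. All 8 points lie below 0 in M against C and in dcKO vehicle against WT vehicle and above 0 in dcKO WNTi against dcKO vehicle, and Aebp1 has the highest value in both WNTi panels, 2.45 and 1.37.

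Other genes of the same tissue were read from lists that were also assembled with results of these data known. Of 20 further meningeal fibroblast genes, 13 passed the filter in the untreated and 15 in the treated table, and none was called by edgeR in any comparison at an adjusted p of 0.05, while DESeq2 called 2 in dcKO WNTi against dcKO vehicle, where it called 1.1% of all genes higher and 0.909% lower. Tbx18, a transcription factor of meningeal and mural cells, had the smallest p in M against C. Its log2 difference was -1.16 ± 0.41 (edgeR adjusted p = 0.221). It was the 1 of 13 at an unadjusted p under 0.05 in the lower direction, beside 8.14% of all genes, and 0 were higher (7.91%). The list median there was -0.19, with 4 of 13 fitted higher and 9 lower, beside -0.92 for the 8 genes. In dcKO vehicle against WT vehicle the list median was -0.22, with 5 of 15 fitted higher and 10 lower, beside -0.88. The smallest p there belonged to Twist1, which was higher, at 1.002 against 0.262 CPM (edgeR adjusted p = 0.371). Before adjustment 1 of 15 was higher and 2 were lower at p under 0.05, beside 4.14% and 5.33% of all genes. Slc13a4, a sulfate transporter of the meninges, was the gene with the smallest p in dcKO WNTi against dcKO vehicle, at 2.01 against 0.189 CPM (edgeR adjusted p = 0.133), and before adjustment 3 of 15 were higher and 1 was lower at p under 0.05, beside 7.85% and 8.0% of all genes. The summed level of this list was 209 to 227 CPM in dcKO vehicle and 224 to 354 CPM in dcKO WNTi, the highest again in replicate 4.

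The fibrillar collagens Col1a1, Col1a2 and Col3a1, the main fibres that these proteoglycans bind, were high in the same C and WT vehicle libraries as Dcn and Lum. Their summed level was 59.4 and 55.8 CPM in C 2 and C 4 and 8.99 and 11.95 CPM in C 1 and C 3, and 9.15 to 23.7 CPM in M. In WT vehicle 2 and 4 it was 63.2 and 63.3 CPM, and in WT vehicle 1 and 3 it was 9.72 and 11.6 CPM. In dcKO vehicle 2, the highest of its group for Dcn and Lum, it was the lowest of its group, at 9.75 against 20.1 to 22.7 CPM. All 3 were fitted lower in M against C and in dcKO vehicle against WT vehicle, with medians of -0.94 and -0.996, and none had an unadjusted p under 0.05. Of 10 further small leucine-rich proteoglycan genes, 5 passed the filter and none was called by edgeR or DESeq2. The log2 difference of Prelp in M against C was -0.95 ± 0.37 (edgeR adjusted p = 0.262), whereas the log2 difference of Bgn, biglycan, was -0.15 ± 0.15. Fmod, fibromodulin, was at 2.61 CPM in dcKO WNTi and 1.13 CPM in dcKO vehicle (log2 difference 1.22 ± 0.44, edgeR adjusted p = 0.231).

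The retinoic acid pathway, in which Aldh1a2 makes the ligand, held several genes with higher levels in dcKO WNTi, none of them called by edgeR. Of 14 genes that passed the filter, 6 were higher than in dcKO vehicle at an unadjusted p under 0.05 (7.85% of all genes) and 6 were called by DESeq2 (1.1% of all genes higher and 0.909% lower). These include Rarb, a retinoic acid receptor that is itself a retinoic acid target, at 25.01 against 6.70 CPM (edgeR adjusted p = 0.122). Stra6, the membrane receptor for retinol uptake, was at 6.72 against 3.75 CPM (edgeR adjusted p = 0.110). The summed level of the 18 genes was 316 to 325 CPM in dcKO WNTi, 214 to 253 in dcKO vehicle and 194 to 294 in WT vehicle, so that all 4 WNTi libraries stood above the rest. Aldh1a2 itself did not share this, with 3 of its 4 WNTi values within the dcKO vehicle range. Cyp26b1, which degrades retinoic acid, was at 23.9 CPM in M and 35.9 CPM in C (log2 difference -0.58 ± 0.12, edgeR adjusted p = 0.107).

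**Figure D3:**
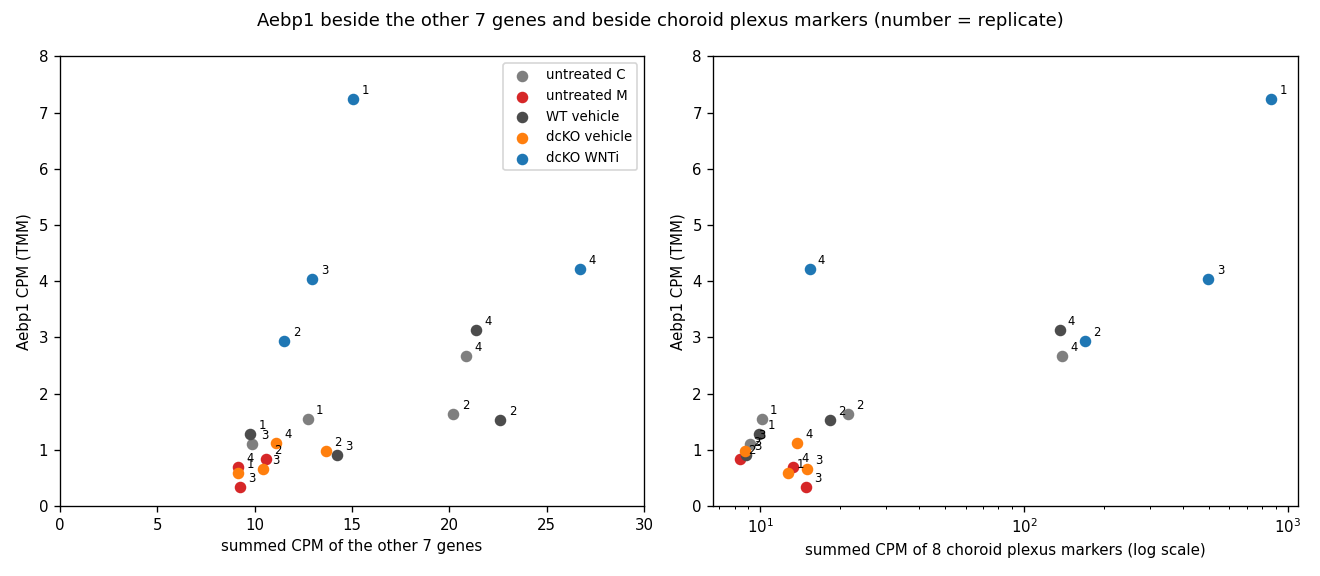
Aebp1 in CPM (vertical axis) against the summed CPM of the other 7 genes (left, linear axis) and of 8 choroid plexus markers (right, log axis), with a point for each RNA-seq library. The 4 dcKO WNTi libraries have the highest Aebp1 except that dcKO WNTi 2, at 2.93 CPM, lies below WT vehicle 4, and 3 of them also have 170 to 864 CPM of choroid plexus markers.

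Markers of the choroid plexus, the secretory epithelium of the ventricles, moved with Aebp1 in part. The sum of 8 such markers, Ttr, Folr1, Kl, Clic6, Aqp1, Otx2, Kcne2 and Sostdc1, was 864, 170, 499 and 15.4 CPM in dcKO WNTi 1 to 4, against 8.73 to 14.99 CPM in dcKO vehicle, and none of the markers was at 0 in any library. It was also high in WT vehicle 4 (136 CPM) and C 4 (139 CPM), the libraries with the highest Aebp1 of their groups, and between 8.85 and 21.5 CPM in the other WT and C libraries. C 4 and WT vehicle 4 shared deviations from their group means (r = 0.546), so they are not independent cases. All 8 markers were fitted higher in dcKO WNTi than in dcKO vehicle, and 7 of 8 had an unadjusted p under 0.05 (7.85% of all genes), with 0 called by edgeR and 6 by DESeq2, against its 1.1% of all genes higher and 0.909% lower. dcKO WNTi 4 had a marker sum of 15.4 CPM, close to the highest dcKO vehicle sum of 14.99 CPM, and Aebp1 at 4.22 CPM, where the highest dcKO vehicle library had 1.12 CPM. Otx2 and Aqp1 were the 2 of 8 markers with no overlap, higher in each dcKO WNTi library, replicate 4 included, than in any dcKO vehicle library (4.48% of all genes). The remaining 7 genes together were at 15.1, 11.5, 12.97 and 26.7 CPM in dcKO WNTi 1 to 4, in the same order as the marker sum in replicates 1, 3 and 2 and highest in replicate 4, where the marker sum was lowest. In C 4 this sum was also the highest of its group, at 20.9 CPM, beside 20.2 CPM in C 2. The part of choroid plexus tissue in the level of Aebp1 was not tested.

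Of the other cell types, endothelial markers were fitted lower in the mutant groups, with 5 of 10 lower at an unadjusted p under 0.05 in M against C (8.14% of all genes) and 5 of 10 in dcKO vehicle against WT vehicle (5.33%). After adjustment edgeR called 0 of them in each comparison and DESeq2 1. DESeq2 called 1.59% of all genes higher and 1.78% lower in M against C, and 0.444% and 0.18% in dcKO vehicle against WT vehicle. The sum of the endothelial markers was 195 to 234 CPM in M, 250 to 295 in C, 196 to 234 in dcKO vehicle and 243 to 286 in WT vehicle, so the groups did not overlap. Mural cell markers summed to 195 to 224 CPM in M and 216 to 248 CPM in C, with 3 of 10 lower at an unadjusted p under 0.05 (8.14% of all genes). They summed to 176 to 203 CPM in dcKO vehicle and 204 to 226 CPM in WT vehicle, without overlap, with 1 of 10 lower at that limit (5.33%). The part of blood vessels in the lower levels of the 8 genes was not tested. Cortical markers summed to 1273 and 1441 CPM in M 3 and M 4 and 2735 CPM in M 2, against 1936 to 2595 CPM in C. In dcKO vehicle 1, 3 and 4 they were at 1085, 1179 and 1362 CPM and in dcKO vehicle 2 at 2341 CPM, against 1656 to 2701 CPM in WT vehicle. In dcKO WNTi they were at 1577 to 1817 CPM. The sum of bone and cartilage markers was higher where the 8 genes were fitted lower. It was 32.6 to 62.3 CPM in M and 18.1 to 30.002 CPM in C, and 48.0 to 81.2 CPM in dcKO vehicle and 24.4 to 35.6 CPM in WT vehicle, with no overlap in either comparison, and 30.9 to 87.4 CPM in dcKO WNTi. Much of this sum was Col2a1, the cartilage collagen, with means of 39.3 CPM in M, 15.2 in C, 54.9 in dcKO vehicle and 20.2 in WT vehicle. Its log2 differences in the M and dcKO vehicle comparisons were 1.38 ± 0.37 and 1.44 ± 0.33 (edgeR adjusted p = 0.169 and 0.222). Of the 6 list genes that passed the filter, 4 were fitted higher in M against C and 2 lower, Col9a1 (-0.53 ± 0.23) and Runx2 (-0.38 ± 0.25). All 6 were fitted higher in dcKO vehicle against WT vehicle, with a median of 0.14. The part of bone and cartilage tissue in the levels of the 8 genes was not tested.

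The genes whose log2 CPM was most like the mean of the 8 over the 12 treated libraries were Slc22a6 (r = 0.93), Ptgds (0.91), Cd302 (0.90), Tmc4 (0.88) and Col1a2 (0.86). Slc22a6, an organic anion transporter, was on the meningeal list, and Ptgds encodes a prostaglandin synthase of the leptomeninges. Over the 7 untreated libraries they were Tbx18 (0.99), Hyou1 (0.99), Senp1 (0.98), Lamc3 (0.97) and Calr (0.97). Foxd1, with a mean count under 10 in these libraries, was not part of that mean. Aebp1 alone had other neighbours, Gm16701 (0.93), Pcp4l1 (0.93), Lbp (0.93), Wdr86 (0.92) and Col8a2 (0.92) in the treated and Cp (0.99), Epn2 (0.99), Has3 (0.98), Ywhab (0.98) and Jak2 (0.98) in the untreated libraries. These are the highest values among 15483 to 15936 genes in few libraries, given as a description, and the points share depth and tissue makeup. Over the treated libraries Aebp1 correlated with the log2 sum of the choroid plexus markers at r = 0.82. With the other genes of the set it correlated at 0.16 (Aldh1a2) to 0.68 (Ogn). Over the untreated libraries it was 0.59 with the marker sum and 0.28 (Aldh1a2) to 0.88 (Ogn) with the other genes, Foxd1 left out.

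H3K27me3, the repressive mark of Polycomb, was found at some of these genes and not at others. The regulators Foxc1 and Foxd1, the enzyme gene Aldh1a2 and Aebp1 had peaks within 2000 bp of the start, whereas the proteoglycan genes Dcn, Lum and Ogn, and Islr, had none in any of the 8 libraries. For Islr this holds at its RefSeq start (position 58158554). A region with peaks in 3 C and 4 K libraries, chr9:58194915-58204259, ends near the 5′ end of the longer Islr gene model in the annotation used for positions (58204306 on the minus strand). Foxc1 and Aldh1a2 had such a peak in all 8, as 2.09% of all promoters did, and Aebp1 and Foxd1 in 4 of 4 C and 3 of 4 K libraries. A peak in at least 1 library was found at 32.6% of all promoters. The marked windows are the CpG-rich ones printed above for Aebp1 and Aldh1a2, and the unmarked ones are those of Ogn and, at its RefSeq start, Islr. Over all promoters the median number of CpG pairs was 17 where all 8 libraries had a peak and 5 where none did.

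No difference in the height of the mark between K and C passed a test. The highest fold enrichment over input at the start of Aebp1 was 13.2, 4.56, 4.53 and 4.63 in C 1 to 4 and 10.3, 4.25 and 8.66 in K 1, 3 and 4, with no peak in K 2. At Aldh1a2 it was 12.8, 5.11, 7.93 and 4.94 in C and 19.1, 3.33, 5.59 and 11.7 in K. The C and K values overlapped at all 4 starts. With limma on log2 fold enrichment over 22220 regions, the difference of K and C was -0.43 ± 0.70 for the region at Aebp1 (chr11:5859130-5864367), in which K 2 counted as no enrichment. It was 0.17 ± 0.57 at Aldh1a2 (chr9:71211827-71225163), 0.30 ± 0.56 at Foxc1 and 0.30 ± 0.51 at Foxd1. None of the 7 regions at these genes, 3 of them in the bodies of Aldh1a2 and Islr, passed an adjusted p of 0.05 or an unadjusted p of 0.05 with limma. Of all regions 0.0% were called in either direction, and 0.198% were higher and 0.0225% lower at the unadjusted limit. A test on peak heights that passes so few regions could hardly call any, so the lack of calls does not show an unchanged mark. The paper, with its own test, reported genes with increased H3K27me3 in the mutant pallium. Enrichment was highest in C 1 and K 1, which kept 13.7% and 16.002% of their tags after duplicates were removed, but C 3 and K 2, which kept 12.3% and 18.0%, did not stand out. C 2, C 4 and K 3 kept 61.5% to 66.5%. The part of duplicate removal in these heights was not tested.

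**Figure D4:**
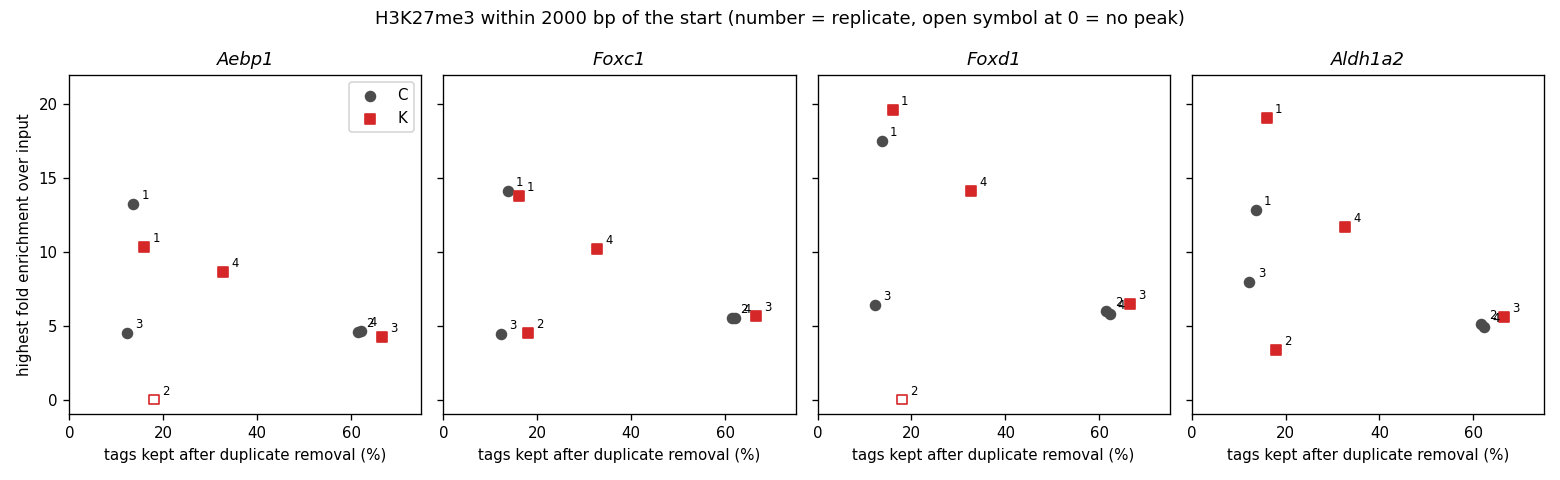
Highest H3K27me3 fold enrichment over input within 2000 bp of the start of the 4 marked genes (vertical axis) against the percentage of tags kept after duplicate removal (horizontal axis), with a point for each library and open symbols for no peak. C and K points overlap in each panel, and C 1 and K 1, with 13.7% and 16.002% of tags kept, have the highest values, 10.3 to 19.6.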

How the data were processed

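RNA-seq reads were aligned by the authors with STAR (mm10, GRCm38), and the deposited values are raw featureCounts counts for Ensembl genes. The library kit does not mark strand. For ChIP-seq, MACS2 was run by the authors on every H3K27me3 library in broad mode (q-value below 0.1, duplicates reduced to 1 tag), with group inputs pooled. The deposited peak lists hold fold enrichment, pileup signal and −log10 q-value.

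Counts were fitted with edgeR 4.0.16 (TMM, filterByExpr, robust quasi-likelihood test) in R 4.3.3, over the 7 untreated and the 12 treated libraries separately, with Benjamini-Hochberg adjustment over all genes tested and approximate 95% intervals from the SE. Correlations used log2 CPM with a prior count of 2 and genes with a mean count of at least 10. Overlapping peaks were merged, regions found in 2 or more libraries were kept, and limma 3.58.1 compared their log2 fold enrichment between K and C. DESeq2 1.42.0, other scalings, blocks, filters and leave-outs were alternatives, and the fit without 3 treated libraries was added after seeing the data. Starts, promoters and positions come from RefSeq and GENCODE on GRCm38. The fits were tested on simulated data. The 8 genes and the lists were chosen with earlier results of these data known. All 8 genes are named, with up to 4 genes of each list by smallest p and the 5 most alike. Whether replicates are separate litters is not given in the sources used here, so p-values measure the spread between these samples. Some genes of the lists are not reported here.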

Additional observations from a re-analysis of the deposited data

Results flagged for a closer look

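In groups of 4 libraries, a library was singled out where its gap to the nearest other library, divided by the range of the group, was above Dixon's 95% critical value. Chance alone singles out about 1 in 20 such groups, and 8 of the 38 groups examined were singled out. dcKO WNTi 4 stood above the other WNTi libraries for Aldh1a2 (gap 0.966 of the range, 2.43 CPM against 0.115 to 0.194), Ogn (0.853, 4.66 CPM against 2.09 to 2.47) and Lum (0.830, 1.28 CPM against 0.459 to 0.598). This library was the only one of its sequencing lane, and had 15.4 CPM of choroid plexus markers where the other WNTi libraries had 170 to 864 CPM. Lane and library cannot be told apart. WT vehicle 1 stood below the other WT libraries for Ogn (0.830, 0.409 CPM from 8 reads, against 2.15 to 2.51 CPM). WT vehicle 4 stood above them for Foxd1 (0.949, 0.775 CPM from 20 reads, against 0.307 to 0.331 CPM). For H3K27me3, C 1 stood above the other C libraries at Aebp1 (0.989, fold enrichment 13.2 against 4.53 to 4.63), Foxd1 (0.950, 17.54 against 5.79 to 6.38) and Foxc1 (0.885, 14.2 against 4.43 to 5.55). C 1 kept 13.7% of its tags, and C 3, which kept 12.3%, had 4.43 to 6.38 at these genes.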

How the results depend on the processing

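No alternative except 1 gave a call among the 7 tested genes. Leaving out each library in turn gave 0 to 1 calls in M against C, the call being Ogn without M 2, and 0 to 0 in dcKO vehicle against WT vehicle and in dcKO WNTi against WT vehicle. The number of all genes called changed with nearly every setting. In M against C it was 1, and 154 without the filter, 529 with DESeq2 and 0 to 1994 over the leave-outs, the highest without M 2. In dcKO vehicle against WT vehicle it was 1, and 0 with DESeq2 size factors, without the filter, with only the 2 groups or with a lane block, 118 with DESeq2, 978 without the 3 doubted libraries, and 0 to 562 over the leave-outs, the highest without dcKO vehicle 2. In dcKO WNTi against dcKO vehicle it was 9, and 20 without the filter, 344 with DESeq2, 0 with a lane block, 172 without the 3 libraries and 0 to 420 over the leave-outs, the highest without dcKO WNTi 2. In dcKO WNTi against WT vehicle it was 16, and 58 without the filter, 8 with only the 2 groups, 733 with DESeq2, 0 with a lane block, 1241 without the 3 libraries and 0 to 1453 over the leave-outs, the highest without dcKO WNTi 2. The causes were not tested.

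With the replicate number as a block, all genes called were 0 in M against C, 5 in dcKO vehicle against WT vehicle, 7 in dcKO WNTi against dcKO vehicle and 189 in dcKO WNTi against WT vehicle, with 0 of the 7 genes, and 0 regions of H3K27me3. In no comparison did every same-numbered pair of RNA-seq libraries deviate together (r from -0.31 to 0.40), so the numbers were not taken to pair the samples.

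The median difference of the 8 genes between dcKO WNTi and dcKO vehicle, 0.63, was 0.19 with a lane block. That fit left out dcKO WNTi 4, and leaving out this library alone gave 0.17. The median was 1.23 without the 3 libraries, a fit that kept only dcKO WNTi 3 and dcKO WNTi 4 in the inhibitor group. It was 0.17 to 0.79 over the leave-outs. In that comparison Dcn was -0.12 and Aldh1a2 -1.34 with a lane block, and they ranged from -0.20 to 0.82 and from -1.27 to 1.29 over the leave-outs. In dcKO WNTi against WT vehicle, Foxc1 was -0.17 and Foxd1 -0.017 with a lane block, Aldh1a2 was 0.63 without the 3 libraries, and the leave-outs ranged from -0.13 to 0.0913 for Foxc1, -0.23 to 0.14 for Islr and -2.35 to 0.49 for Aldh1a2. In dcKO vehicle against WT vehicle, Foxd1 ranged from -0.30 to 0.37. At the H3K27me3 starts, Aldh1a2 was -0.26 with peaks at q under 0.01, and the leave-outs ranged from -0.24 to 0.60 for Aldh1a2, -0.84 to 0.28 for Aebp1 and -0.015 to 0.66 for Foxd1, with 0 to 1 regions called over all, the 1 without C 1. Aldh1a2 and Foxd1 did not pass the filter in M against C without C 2 or C 4 and without C 1, respectively, and so had no value there, nor did Aldh1a2 in the WNTi comparisons or Foxd1 against WT vehicle when only the 2 groups compared were fitted. With 0 to 170 reads a gene and library, counting error limits every value of these genes.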

Other observations

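Microglia markers summed to 33.7 to 61.2 CPM over all libraries. At an edgeR p under 0.05 before adjustment, 2 of 8 were lower in M against C (8.14% of all genes), 1 in dcKO vehicle against WT vehicle (5.33%), 1 in dcKO WNTi against dcKO vehicle (8.0%) and 3 in dcKO WNTi against WT vehicle (10.2%). edgeR called 0 after adjustment in all 4, and DESeq2 called 1 in M against C, where it called 1.59% of all genes higher and 1.78% lower, and 0 in the others. P2ry12, a purinergic receptor of microglia, was at 4.22 CPM in M and 7.08 CPM in C (edgeR adjusted p = 0.149), and at 2.99 CPM in dcKO vehicle and 5.46 CPM in WT vehicle (edgeR adjusted p = 0.469). Not all markers followed it. In M against C 3 of 8 were fitted higher and 5 lower, with a median of -0.05. In dcKO vehicle against WT vehicle 5 were fitted higher and 3 lower, with a median of 0.08. There Aif1 was higher without overlap, at 1.06 against 0.781 CPM (edgeR adjusted p = 0.687).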
